A study of Caenorhabditis elegans with 2 samples.

Results

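Upstream promoter peaks of MCD-1 were examined: sites on the autosomes where the protein was recovered more than 300 and up to 1000 bp before the annotated 5′ end of a protein-coding gene, with the genes in reach all on 1 strand. The study carried out chromatin immunoprecipitation followed by sequencing (ChIP-seq) on intact young adults of Caenorhabditis elegans at 65 hours, synchronised by starving hatched L1 larvae after bleaching. Both biological replicates came from strain RW12215. Its allele st12215 was made by CRISPR editing, which put a TY1, EGFP and 3xFLAG tag into mcd-1 itself, and an antibody against GFP was used. The samples form 1 group, so there is no comparison between conditions, and signals from all tissues of the animal are mixed. Members were taken from the authors' conservative list of peaks that passed their irreproducible discovery rate (IDR) threshold. A summit was a member when it lay within 1000 bp upstream to 200 bp downstream of 5′ ends on 1 strand alone and more than 300 bp upstream of the nearest of them. The rule found 504 of the 3903 conservative peaks (12.9%), beside 631 one-strand summits in the core promoter, at 300 bp or less, and 615 in bidirectional promoters, where genes of both strands have the summit in their window.

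A promoter is the stretch before a gene where the transcription machinery and the proteins that regulate it assemble. In C. elegans many transcripts lose their original 5′ end, because a spliced leader replaces it (trans-splicing). Transcription of such a gene can start well upstream of the annotated end, and genes downstream in an operon have no promoter directly before them. MCD-1 is a zinc finger protein that modifies programmed cell death and is redundant with LIN-35, the worm's retinoblastoma protein.

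The genome sequences around the summits of strong members are printed here. Each line gives 50 bp on either side of the summit (ce11, RefSeq WBcel235), read on the strand of the gene, with capitals marking GAGCG or its reverse complement CGCTC. They come from the strongest members on autosomes II to V.
vps-39, chrV:14038844-14038944, minus strand: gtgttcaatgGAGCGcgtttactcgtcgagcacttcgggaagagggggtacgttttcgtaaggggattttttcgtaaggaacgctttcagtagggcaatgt
mtcu-2, chrII:10033629-10033729, minus strand: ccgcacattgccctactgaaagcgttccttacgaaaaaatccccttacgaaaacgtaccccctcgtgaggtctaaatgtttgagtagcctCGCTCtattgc
Y62F5A.12, chrII:11534946-11535046, minus strand: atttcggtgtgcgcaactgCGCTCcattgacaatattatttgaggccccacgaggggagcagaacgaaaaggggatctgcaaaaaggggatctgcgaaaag
cnk-1, chrIII:10270891-10270991, plus strand: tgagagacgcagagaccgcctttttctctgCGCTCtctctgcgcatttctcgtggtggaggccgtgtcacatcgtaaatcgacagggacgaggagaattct
rpl-35, chrIII:7854632-7854732, plus strand: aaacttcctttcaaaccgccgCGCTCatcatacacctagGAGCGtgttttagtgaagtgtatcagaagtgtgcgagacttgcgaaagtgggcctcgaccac
W08E12.7, chrIV:3294706-3294806, plus strand: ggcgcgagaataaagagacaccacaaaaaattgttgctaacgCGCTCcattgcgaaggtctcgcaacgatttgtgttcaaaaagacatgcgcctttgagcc
cept-2, chrV:14347374-14347474, plus strand: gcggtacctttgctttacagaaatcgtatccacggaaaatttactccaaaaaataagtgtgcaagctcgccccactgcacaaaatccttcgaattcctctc

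The word stands in 6 of these 7 windows, on either strand, and rpl-35 has 2 copies. That share is higher than among all 15 strongest members, of which 9 hold it, and than among all members (33.5%), and the strongest of all, rpa-2, is without it. The next lines show 3 members that share a long stretch with one of the above, npp-18 with vps-39, rps-24 with Y62F5A.12 and npr-15 with cnk-1. The last pair are the strongest member within 200 bp of a tRNA gene and the strongest one in an exon, at try-3 and knl-3. Neither holds the word, and the try-3 summit lies inside the tRNA gene.
npp-18, chrIII:13296409-13296509, plus strand: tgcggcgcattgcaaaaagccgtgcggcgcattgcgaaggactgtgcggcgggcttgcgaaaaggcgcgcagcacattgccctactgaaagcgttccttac
rps-24, chrIV:385485-385585, plus strand: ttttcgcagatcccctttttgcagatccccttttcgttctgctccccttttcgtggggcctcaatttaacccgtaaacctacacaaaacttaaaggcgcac
npr-15, chrIII:3695554-3695654, minus strand: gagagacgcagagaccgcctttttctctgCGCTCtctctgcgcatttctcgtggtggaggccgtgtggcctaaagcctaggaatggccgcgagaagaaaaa
try-3, chrIV:6556796-6556896, plus strand: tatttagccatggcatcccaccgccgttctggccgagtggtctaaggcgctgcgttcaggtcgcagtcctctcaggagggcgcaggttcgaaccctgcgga
knl-3, chrV:1868750-1868850, plus strand: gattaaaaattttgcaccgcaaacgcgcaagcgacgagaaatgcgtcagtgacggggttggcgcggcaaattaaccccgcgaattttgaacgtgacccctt

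The 3 strongest upstream sites stood before genes of DNA replication, membrane traffic and mitochondrial tRNA modification. Each replicate's signal, the peak caller's measure of enrichment, is given as a multiple of that replicate's median over the conservative peaks. At rpa-2, which encodes a subunit of the single-strand DNA binding protein RPA used in DNA replication, the signal was 25.8 in replicate 1 and 25.4 in replicate 2 (25.6 ± 0.23, SD, n = 2). That peak spans bases 4769235 to 4769877 of chromosome I, with its summit 650 bp upstream and outside other annotation. The peak at vps-39, whose yeast homologue tethers membranes to the vacuole, reached 26.1 and 24.4 (25.3 ± 1.26). A summit in an intron of let-268, a lysyl hydroxylase gene, lay 466 bp before mtcu-2, which encodes a mitochondrial tRNA modification factor, with 26.6 and 22.7 (24.7 ± 2.75). The gaps between these 3 members were within the spread of their replicates.

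Below them the values fell to 18.4 ± 0.74 at Y62F5A.12 (17.9 and 18.9), in the stretch just past the 3′ end of another gene. The scaffold gene of Ras signalling cnk-1 gave 15.1 and 16.6 (15.9 ± 1.03), and the ribosomal protein gene rpl-35 gave 15.8 and 12.2 (13.97 ± 2.54). From cnk-1 on, most neighbours in the order were closer than their replicate SDs.

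**Figure D1:**
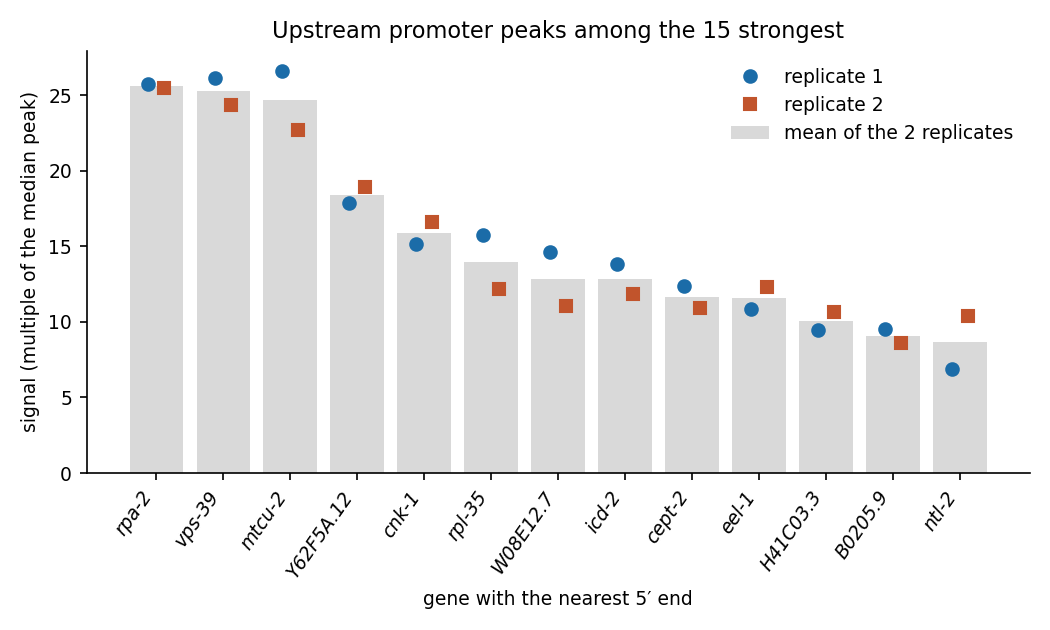
Signal at upstream promoter peaks among the 15 strongest, as a multiple of the median conservative peak of each replicate. Grey bars are means of the 2 replicates, circles replicate 1 and squares replicate 2, and the bars fall from 25.6 at rpa-2 to 8.66 at ntl-2.

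The next members were W08E12.7 (14.6 and 11.1), icd-2 (13.9 and 11.9), which encodes a subunit of the nascent polypeptide-associated complex, and cept-2 (12.4 and 10.9), a choline and ethanolamine phosphotransferase gene. The HECT ubiquitin ligase gene eel-1 gave 10.9 and 12.3 (11.6 ± 1.02). Further members among the 15 strongest were H41C03.3 (10.1 ± 0.83), B0205.9 (9.07 ± 0.70) and the CCR4-NOT subunit gene ntl-2 (8.66 ± 2.47). For H41C03.3 the summit lay 972 bp upstream, within 200 bp of a small nuclear RNA gene. None of the 15 genes had a second summit in its core promoter.

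Among all members the authors' signal of the conservative list ran from 2.75 to 3938 with a median of 155. Of the 25 strongest conservative peaks 3 were members, and of the 100 strongest 11 were. These counts are near the 12.9% that members make up of the whole list. At or above the list's median signal were 270 members (53.6%). The median of all members was 1.07 in replicate 1 and 1.08 in replicate 2 (1.07 ± 0.013, SD of the 2 medians). The core one-strand summits had medians of 1.44 and 1.26, which is 1.35 and 1.16 times those of the members. For bidirectional summits the medians were 1.88 and 1.68, or 1.76 and 1.55 times those of the members. Both replicates gave this order, but 2 replicates cannot give an exact paired permutation p below 0.5, so differences between classes are described without a test.

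Examples are C09E7.7 at the upper quartile of signal (2.02 and 1.67, with the replicate 2 summit just over 100 bp away and another summit at 205 bp), T24B8.3 at the median (1.05 and 0.91) and ama-1, the gene of the largest subunit of RNA polymerase II, at the lower quartile (0.90 and 0.47). At the 499 members with a value in both replicates the log2 ratio of replicate 1 to replicate 2 had an SD of 0.52, against 0.54 for all conservative peaks. More than 2-fold apart were 24 members (4.81%), near the 4.79% over all conservative peaks with both values. The farthest were pas-5, his-42, C16A11.3 and 1 of 2 members at each of R11A5.6 and egg-5. At pas-5, a proteasome subunit gene, the signals were 0.40 and 5.73, and the nearest summit in replicate 2 lay 219 bp away from that of the member. The other 4 differed by 2.47 to 3.49 times. Both members at R11A5.6 have the same replicate 2 value, 1.68, so for 1 of them it may be that of the neighbouring summit.

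**Figure D2:**
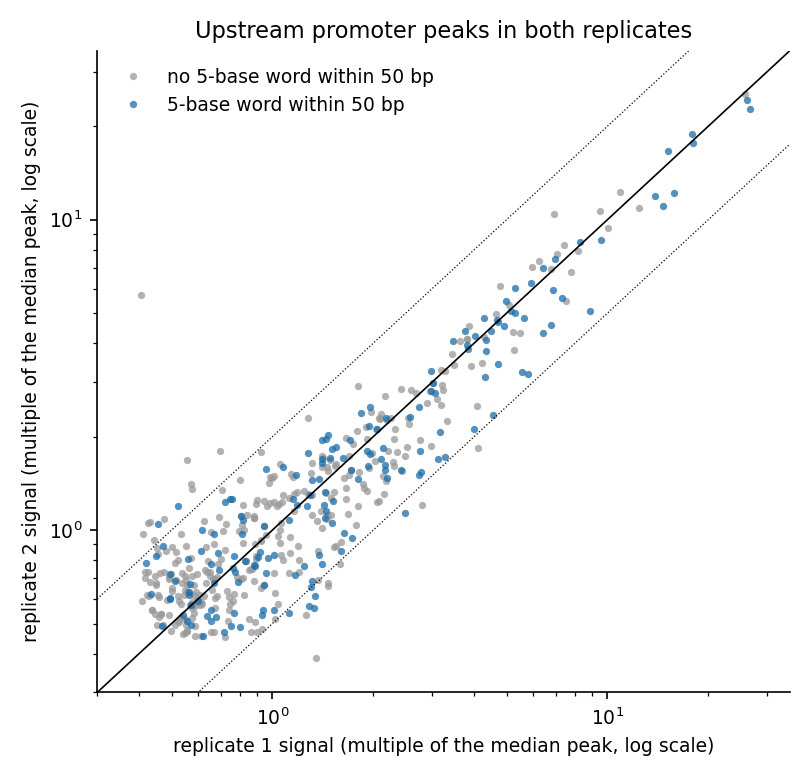
Signal of the 499 members with values in both replicates, replicate 1 on the x axis and replicate 2 on the y axis, both log scales in multiples of the median peak. The solid line is equality and dotted lines are 2-fold; blue points hold GAGCG or its reverse complement within 50 bp of the summit, and 24 points lie outside the dotted lines.

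Each replicate also has its own thresholded list. In replicate 1's list 371 members (73.6%) overlapped a peak by at least 1 bp, where 72.1% of all conservative peaks did. In replicate 2's list 355 members (70.4%) did so, with a background of 68.8%. Both lists held 308 members (61.1%) against a background of 59.0%, and 86 members (17.1%) were in neither. These shares were near those of the whole list, while core summits were in both lists at 71.6% and bidirectional ones at 79.2%.

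Some members stood beside stronger peaks. All 12 members with a signal under 20 in the conservative list had another conservative summit within 500 bp, and for each of them the matched summit lay over 100 bp away or was missing in at least 1 replicate. In all, 37 members had a matched summit over 100 bp away or none in at least 1 replicate, and the values of those matched so far away may be those of a neighbouring summit. Without them the median of the members was 1.15 in replicate 1 and 1.10 in replicate 2.

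The members thinned out with distance from the gene. They lay 549 bp upstream at the median, with quartiles of 408 and 760 bp. From more than 300 to 400 bp there were 122 summits, or 92.1 per Mb of eligible bases, where eligible means that a summit on that base would be assigned to the same class. From more than 900 to 1000 bp there were 44, or 31.6 per Mb. The density over the whole range was 52.6 per Mb, against 156 in the core promoter, 311 in bidirectional promoters and 42.1 over all autosomal bases.

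**Figure D3:**
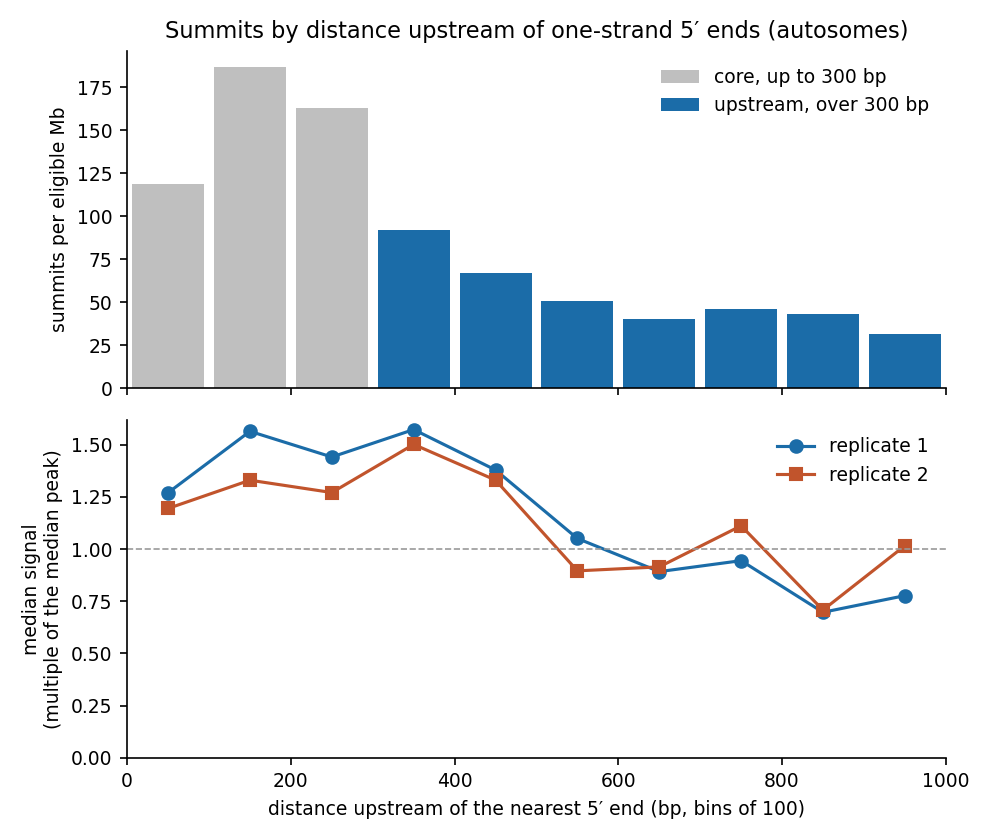
Summits per Mb of eligible bases (top) and median signal in each replicate (bottom, multiples of the median peak) in bins of 100 bp upstream of one-strand 5′ ends, with members in blue and core summits in grey. The density falls from 187 per Mb at 100 to 200 bp to 31.6 at 900 to 1000 bp.

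Signal fell with distance too, but in steps. The nearest members, up to 400 bp, had medians of 1.573 and 1.502 (1.54 ± 0.050), above the highest of the core bins, 1.56 and 1.33. The margin over it was narrow in replicate 1 and wider in replicate 2. From more than 400 to 500 bp the medians were 1.38 and 1.33. Beyond 500 bp every bin was at 0.70 to 1.05 in replicate 1 and 0.71 to 1.11 in replicate 2. These outer bins did not follow an order that both replicates shared. The share of members in both replicates' own lists went from 77.9% in the nearest bin to 45.5% in the farthest, with 38.3% in the bin before it.

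At the edges of the rule, ima-3 (0.94 and 0.55), mab-10 (0.57 and 1.41), T19H5.4 (0.45 and 0.84) and T28B8.1 (1.79 and 2.09) lay just beyond 300 bp. Just inside 300 bp, and so outside the set, lay tag-322 (5.86 and 3.89), nrde-4 (6.22 and 6.20), gst-27 (1.77 and 1.82) and arid-1 (0.95 and 1.05). At the far end dhs-8 lay at 997 bp (1.30 and 1.53), acer-1 at 993 bp (0.46 and 1.05), hmg-1.1 at 989 bp (0.72 and 0.86) and K05C4.8 at 982 bp (0.65 and 0.73). The last is among the members with a signal under 20 in the conservative list (5.12). Its replicate values may therefore be those of a neighbouring summit. Summits just past 1000 bp stood before har-1 (1.12 and 1.06), nol-58 (1.67 and 1.67), ZC412.5 (1.24 and 1.10) and Y71A12C.2 (0.90 and 0.52).

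Upstream of one gene often means inside or behind another. Of the 504 members, 163 (32.3%) lay inside another annotated gene, against 45.8% of the eligible bases. In exons of another protein-coding gene there were 53 members (10.5%, with 27.1% of eligible bases), and in introns 67 (13.3%, with 14.5%). Noncoding genes and pseudogenes held 43 (8.53%, with 4.16%). Within 500 bp past the 3′ end of a protein-coding gene lay 117 members (23.2%, with 11.2%), and 224 (44.4%, with 43.01%) had none of these annotations.

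Exonic members were also the weakest, with medians of 0.63 and 0.74 (0.68 ± 0.083), and intronic ones had 0.90 and 0.84. Members past a 3′ end had 1.40 and 1.21, and those without annotation 1.27 and 1.19. Members without annotation exceeded exonic ones 2.04 times in replicate 1 and 1.61 times in replicate 2. Mean GC content was 50.1% at exonic summits and 45.4% past 3′ ends, and its part in these values was not tested. The strongest exonic member, at the kinetochore gene knl-3, gave 8.18 and 7.90 and lay in an exon of T10B5.3 on the opposite strand.

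**Figure D4:**
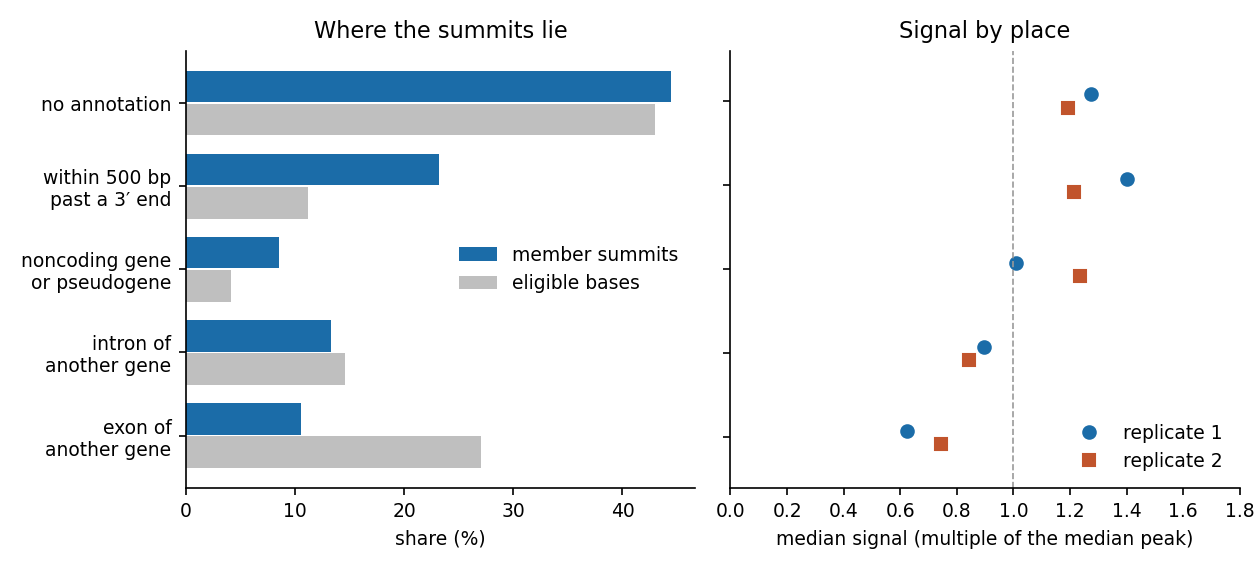
Left, share of the 504 member summits and of the eligible bases in each place. Right, median signal of the members there in each replicate, in multiples of the median peak; exons hold 10.5% of members and 27.1% of bases and have the lowest medians.

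The gene before a member's gene lay on the same strand for 298 members (59.1%), against 53.6% of all autosomal protein-coding genes. The median gap to it was 1177 bp, against 826 bp for all. The rule leaves out summits that also lie in the window of a 5′ end on the opposite strand. That favours same-strand neighbours and wider gaps by construction. All genes were not put under this rule, so the comparisons of this paragraph are not like with like. A same-strand neighbour that ends within 300 bp, the arrangement of genes in an operon, was found for 37 members (7.34%) and for 13.3% of all genes. For these 37 the medians were 0.87 and 0.79. They include mtcu-2, 52 bp behind let-268.

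Most members stood before genes with no core summit. A core summit, reaching from 300 bp before the 5′ end to 200 bp past it, was present at the gene of 58 members (11.5%), and 446 (88.5%) had none. The same share over all autosomal genes was not counted. These shares therefore do not tell whether the genes of members have a core summit more or less often than other genes. For 37 of the 58 both summits were matched within 100 bp in both replicates. The upstream summit was the stronger in both replicates in 17 of these and the core summit in 15, and 5 were split. The median ratio of upstream to core signal was 1.08 in replicate 1 and 1.05 in replicate 2. The extremes were C25A1.16, where the upstream summit was 12.9 and 6.01 times the core one, and C34C12.8, where it was 0.056 and 0.035 times.

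Members with and without a core summit did not differ in a direction that both replicates shared. Without one, the medians were 1.12 and 1.08, and with one 0.94 and 1.11. A gene had at most 2 members, and 21 genes had 2. In all, 483 genes had the 5′ end nearest to a member.

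Small RNA genes lay close to 42 members (8.33%), counted within 200 bp or inside the gene: 17 for tRNA genes, 11 for small nuclear RNA genes and 14 for small nucleolar RNA genes. The share of eligible bases or of other summits this close to such genes was not counted, so 8.33% cannot be called high or low. These 42 members had medians of 1.33 and 1.47, against 1.05 and 1.05 for the other 462. The strongest were H41C03.3 and egg-5, the pseudophosphatase gene of egg activation, next to small nuclear RNA genes (10.1 ± 0.83 and 7.86 ± 0.64), and F59C6.18, next to a small nucleolar RNA gene (8.39 ± 0.15). For the 17 members at tRNA genes the medians were 1.01 and 1.15. In 11 members the summit lay inside a tRNA gene. Among these was try-3, whose window is printed above and which led with 2.20 and 2.27. At such members the peak lies near or inside a second gene, and the files do not tell which of the genes a peak belongs to.

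The member windows were richer in G and C than their surroundings. Mean GC content within 50 bp of the summit was 47.9%, against 34.9% over all eligible bases and 34.98% in windows of the same length centred 650 bp upstream of all autosomal protein-coding genes, which served as background. Core and bidirectional summits were at 46.6% and 47.0%. Along the region the GC content of 50-bp steps rose from 35.3% to 35.6% at 150 bp on either side to 49.5% at the summit. At the core of the same genes, 150 bp upstream, it was 33.98%, against 33.84% for all genes.

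Of the 24 sequence words searched on both strands, 5 are described in full, those with the largest ratio to background among words in at least 10 members. GAGCG was in 169 members (33.5%, 95% Wilson interval 29.5% to 37.8%), where the background was 6.07%. GAGAGA was in 20.4% of members with a background of 5.24%, and CCGCC was in 128 (25.4%) with 6.94%. The GC box GGGCGG, whose reverse complement contains CCGCC, was in 34 (6.75%) with 1.57%. GCGCGAAA, a form of the E2F core, was in 17 (3.37%) with 0.342%. GC content was also higher in the member windows, and its part in these shares was not tested.

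The core and bidirectional summits carried these words at like shares: GAGCG in 35.7% and 38.05%, GAGAGA in 19.5% and 16.3%, CCGCC in 22.7% and 22.8%, GGGCGG in 6.66% and 7.80%, and GCGCGAAA in 2.69% and 3.90%. Some words were less frequent at members than in the background. The lowest ratios were 0 for GTCTAGAC and 0.20 for ACTACAA, in 0 and 2 members. Examples rich in A and T follow. TATAAA was in 16 members (3.17%, with 11.98% in the background), the 7-base T tract in 55 (10.9%, with 21.2%) and TTTGAA, the core of the cell cycle homology region, in 88 (17.5%, with 29.7%). The share of TTTGAA was 25.2% at core summits and 23.4% at bidirectional ones. The other 16 words had ratios to background between 0 and 5.13, the highest for TCTCGCGA, in 3 members.

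GAGCG was most frequent at the summit. Windows of 25 bp on either side held it in 19.4% of members at the summit, in 12.9% and 10.1% at 50 bp to either side, and in 2.78% to 4.37% at 200 and 250 bp, with 2.99% in background windows of that length. At 300 to 500 bp the shares were 3.77% to 5.75% on the gene's side and 2.98% to 3.77% on the other side. Among the 371 members with the word within 500 bp the nearest copy lay 58 bp from the summit at the median, and 106 members had it within 25 bp. Neither this distance nor the share within 500 bp was computed for background windows. In 105 member windows the word read GAGCG only on the strand opposite to the gene, in 55 only on the gene's strand and in 9 on both. Core summits had a like lean, with 139 of 225 on the opposite strand only, while background windows had 518 of 1046. At the core of the members' genes, 150 bp upstream, the word was in 5.18% of windows, against 6.32% for all genes.

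**Figure D5:**
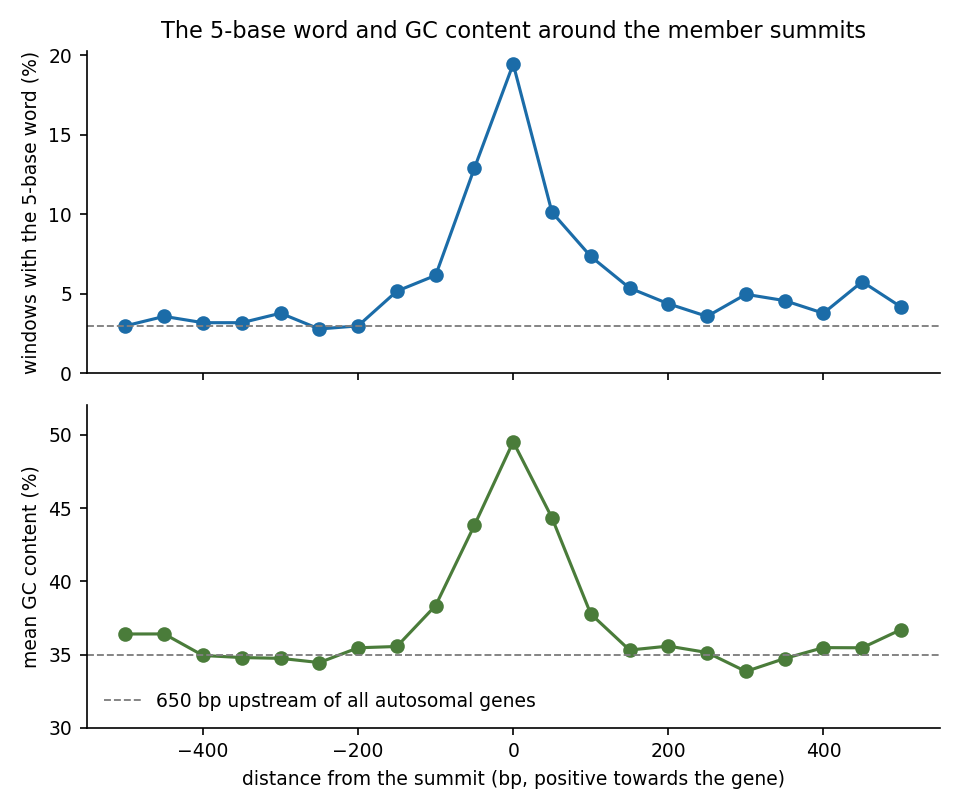
Share of members with GAGCG or its reverse complement (top) and mean GC content (bottom) in 51-bp windows at steps of 50 bp from the summit, positive towards the gene. Dashed lines are the background 650 bp upstream of all autosomal genes, 2.99% and 34.9%; both curves peak at the summit, at 19.4% and 49.5%.

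Members with the word had the higher signal. Their medians were 1.43 in replicate 1 and 1.45 in replicate 2, against 0.92 and 0.99 without it, a ratio of 1.55 and 1.46. Mean GC content was 47.9% in both sets, and the part of GC content or of other features in this difference was not tested. At core summits the ratio was 1.84 and 1.62. Of the 15 strongest members 6 did not hold the word, among them rpa-2, cept-2, eel-1, H41C03.3 and ntl-2.

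The commonest 10-base word in the member windows was GAGACGCAGA, which was counted after the values were seen. It was in 34 members (6.75%), in 6.81% of core and 5.69% of bidirectional windows, and in 0.348% of background windows. The signals of these 34 had medians of 1.69 and 1.54. A word that extends CGCTC, AAACGCGCTC, was in 21 members (4.17%, with 0.116% in the background), with medians of 3.06 and 2.07. These words were chosen for their frequency in these windows, so the shares describe and support nothing.

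Several members share sequence with each other. A stretch of 20 or more identical bases, on either strand, joined 57 members (11.3%) into 15 groups of 2 to 8, and 6 of the 15 strongest members were among them. Such sharing was not counted within the core, bidirectional or background windows, so it is not shown to be particular to the members. The windows of vps-39 and mtcu-2 printed above share 60 bases, read in opposite directions relative to the genes. Runs of 60 to 64 bases are shared with them by mec-6 (7.33 and 5.58, 6.46 ± 1.24) and Y48G10A.1 (1.16 and 1.31, 1.23 ± 0.11). The window of npp-18 shares up to 30 bases with this group (2.55 and 2.20). The signals of these 5 members ran from 1.23 to 25.3, beyond the spread of the replicates.

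Another group joins cnk-1 (15.9 ± 1.03), B0205.9 (9.07 ± 0.70) and npr-15 (4.72 ± 0.036), a neuropeptide receptor gene, with 65 to 66 shared bases. Another holds Y62F5A.12, eel-1 and the ribosomal protein gene rps-24 with ttll-4, npp-6, C26B2.7 and oma-2, at 0.80 to 18.4 times the median peak. Y62F5A.12 and rps-24 share 48 bases, in opposite directions. The largest group, of 8 members that all hold GAGCG, was weak, at 0.62 to 1.89. In the group of rga-2, ZK622.1, K02B12.7 and Y55F3BR.6 all 4 summits lay inside tRNA genes.

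At least 1 stretch of 20 bases that occurs more than once in the genome was in 49.6% of member windows. Core windows had one in 46.1%, bidirectional windows in 50.7% and background windows in 51.5%. More than 50% of the 20-base stretches of the window occurred more than once in the genome for 66 members (13.1%), against 5.55% of core windows, 3.90% of bidirectional windows and 9.99% of background windows. This held for the 3 strongest members, with 81.7% of stretches at rpa-2, 69.5% at vps-39 and 57.3% at mtcu-2. The sources used here do not say how reads with several matches were assigned, and the part of this in the signals was not tested. The 447 members that share no stretch had medians of 1.04 and 1.07, and 31.3% of them held GAGCG.

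The genes of the members were then sorted into 37 lists by symbol. Of 17242 autosomal protein-coding genes, 483 (2.80%) had the 5′ end nearest to a member, and 147 of these (30.4%) were in a list. The share of all autosomal genes that are in a list was not counted, so 30.4% cannot be called high or low. Cytosolic ribosomal proteins had the largest share, 11 of 79 genes (13.9%). Besides rpl-35 they were led by rpl-32 (6.43 and 6.96), rps-24 (5.07 and 5.31) and rps-28 (4.27 and 4.82), and rpl-30 was the lowest (0.61 and 0.58). Many more of this list had other classes of summit, 41 in bidirectional windows and 14 nearest to a core summit. Mitochondrial ribosomal proteins had 3 of 70 (mrpl-15, mrpl-23 and mrpl-39), translation factors 3 of 42 and aminoacyl-tRNA synthetases 2 of 32.

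Genes of energy and membranes followed. Of respiratory chain and ATP synthase genes 7 of 58 had a member (12.1%), led by the cytochrome c oxidase subunit gene cox-4 (5.63 and 4.82), cox-6A (3.21 and 2.93) and the cytochrome c1 gene cyc-1 (2.89 and 2.56). The vacuolar ATPase and sorting list had 4 of 71 (5.63%), with vps-39 and vha-13, a V-ATPase subunit gene (5.28 and 5.00), far above vps-36 (0.58 and 0.67). Chaperones had 2 of 71 (2.82%), the Hsp70 genes hsp-1 (4.71 and 4.68) and hsp-4 (1.31 and 1.45). That share is near the background.

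In RNA and nuclear transport, nucleoporins and transport factors had 6 of 51 (11.8%). The importin alpha gene ima-2 (4.31 and 3.12) and the nucleoporin genes npp-6 (3.93 and 3.37) and npp-18 (2.55 and 2.20) were the highest, and lem-4 the lowest (0.59 and 0.57). Splicing and snRNP proteins had 7 of 90 (7.78%), led by the Sm protein gene snr-4 (4.77 and 6.11) and the SR protein gene rsp-8 (4.34 and 4.08). Germline RNA regulation had 6 of 66 (9.09%), with mut-16 (2.16 and 1.56), the RNA helicase gene cgh-1 (1.63 and 1.71) and the RNA-dependent RNA polymerase gene ego-1 (1.72 and 1.56) first. CCR4-NOT, decay and Integrator had 3 of 57 (5.26%), where ntl-2 stood far above pcf-11 and ntl-4, both at 0.76 or less in each replicate.

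Chromatin regulators had 10 genes with a member (9.62% of the list). The acetyltransferase gene cbp-1 (7.07 and 7.76) and the SWI/SNF subunit gene swsn-7 (4.03 and 4.22) led, followed by the histone H3 demethylase gene rbr-2 (2.31 and 1.97), and 4 of the 10, lin-40, swsn-1, chd-1 and set-1, were under 0.90 in the mean. Histone genes had 5 of 68 (7.35%), with his-47 highest (1.795 and 1.196). These genes are near-identical copies, so a gene of this family is uncertain. RNA polymerase II, TFIID and Mediator had 5 of 79 (6.33%), all at 1.33 or less in the mean. Of the DRM complex and other synMuv B genes, partners of LIN-35, 1 of 19 had a member, lin-13 (2.08 and 2.30).

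Of the cell cycle, DNA replication had 3 of 45 (6.67%: rpa-2, the nuclease gene crn-1 and mcm-10) and mitosis 7 of 111 (6.31%). Knl-3 and hcp-3, the gene of the centromeric histone CENP-A (7.53 and 5.46), stood above the rest of the mitosis list, which lay at 0.49 to 1.71 in the mean. Meiosis had com-1 (3.06 and 2.77) and the recombinase gene rad-51 (1.94 and 2.16), 2 of 57. Cell death and engulfment had 3 of 39 (7.69%), icd-2, crn-1 and psr-1 (0.74 and 0.61). Ubiquitin conjugation had 9 of 82 (11.0%), led by the F-box gene lin-23 (5.94 and 7.05) and the protease gene usp-4 (3.44 and 3.70), while the proteasome had 2 of 33, pas-5 and rpn-12.

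Muscle structure had 5 of 47 genes (10.6%): the actin genes act-2 (6.25 and 7.37) and act-1 (0.44 and 0.93), the calponin gene cpn-3 (3.33 and 2.24), the kindlin gene unc-112 (1.47 and 2.02) and the cofilin gene unc-60 (1.27 and 1.77). None of the 47 was nearest to a one-strand core summit or in the window of a bidirectional one. Reads of near-identical actin genes can be hard to tell apart. Tubulins and motors had 4 of 37 (10.8%), all below 1.5 in each replicate. Transcription factors other than homeobox and nuclear receptor genes had 13 of 205 (6.34%). Their highest were lin-28, which the symbol list takes in although it encodes an RNA-binding protein (4.90 and 4.54), and the zinc finger gene ztf-7 (4.63 and 4.99), while the FOXO gene daf-16 gave 0.91 and 0.82.

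The large families of specialised genes were at or under the background of 2.80%: nuclear hormone receptors had 5 of 247 (2.02%), C-type lectins 4 of 237 (1.69%), cuticle collagens 2 of 147 (1.36%), F-box families 2 of 305 (0.656%) and chemoreceptors 4 of 1217 (0.329%). The chemoreceptor genes were sre-23 (2.18 and 2.29), srh-170, srh-2 and sri-37 (0.54 and 0.53). No member was nearest to any of 73 homeobox, 108 neuropeptide and insulin, or 175 ion channel and neurotransmitter receptor genes. The remaining lists had 1 to 3 genes each: Argonaute and small RNA pathway 3 of 63, development signalling 3 of 80 (led by kin-35, 7.79 and 6.78), lipid transport 2 of 54, DNA repair 1 of 49 and detoxification 1 of 175.

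By chromosome, the density of members was 70.2 per Mb of eligible bases on III, 66.2 on I, 55.8 on II, 53.6 on IV and 32.8 on V. Chromosome V also had the lowest medians, 0.91 and 0.93, and chromosome I the highest, 1.38 and 1.23. The share of genes with a member ran from 1.74% on V to 3.64% on III. As a share of the conservative peaks of the chromosome, however, members made up 12.9% on I, 13.3% on III, 14.8% on IV, 15.7% on V and 16.7% on II.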

How the data were processed

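The deposited files are peak lists of 2 biological replicates on ce11, per the labels. Which aligner and peak caller were used is not given in the sources used here; a control experiment named in the labels was not used here, and no file holds read counts, so depth is unknown and intervals for single peaks were not formed. The signal of a peak is the authors' deposited measure of enrichment, with unknown scaling. The score, as deposited by the authors, runs to 1000 and is at least 830 in the conservative list. The series' ranked lists hold 16 columns of per-sample values without names, which were not used.

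Summits were placed against protein-coding genes of Ensembl release 115 and the RefSeq WBcel235 sequence, which is the assembly of ce11. A replicate's value was read from its own ranked list, at the overlapping peak whose summit lay closest, and divided by the median of such values in the conservative list, 87.3 for replicate 1 and 66.7 for replicate 2. Means are given ± SD, n = 2. Intervals of shares cover counting error only. Eligible bases follow the summit rule applied to every autosomal base. Motif windows were 101 bp, and background windows were centred 650 bp upstream of 17241 autosomal genes. Lists follow gene symbols. The rule for the classes of summit, the matching of replicates, the overlap rules and the word search were tested on simulated data. The other steps were not. The alternatives were another peak list, other limits, other windows, transcript starts and each replicate alone.

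Named genes are the 15 strongest members (some of them are not reported here), up to 4 leading genes of a list, those at the limits of the rule, at quartiles of the signal and the 5 with the widest replicates; others, such as the lowest of a list, members of shared-sequence groups and the extremes of the core pairs, were chosen after their values were seen. The members and lists were chosen with earlier results of these data known. Python 3.11.15, numpy, pandas, scipy and matplotlib were used.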

Additional observations from a re-analysis of the deposited data

How the results depend on the processing

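The number of members depends on the rule. It was 270 when the signal had to reach the list's median and 292 with a near limit of 500 bp, and between 341 and 720 under the other alternatives. The median signal of 1.07 moved by more than the spread of the replicates, which was small: to 0.948 on the pooled list, 1.84 with signals of at least the list's median, 1.03 with transcript starts, 1.17 and 0.886 with near limits of 200 and 500 bp, and 1.23 with a far limit of 750 bp. With alternatives chosen after seeing the data it was 1.05 without members near small RNA genes, 1.26 without those inside another gene, 1.10 without signals under 20, 1.13 without members whose replicate summit lay over 100 bp away and 1.05 without those sharing a stretch. A single replicate gave 1.07 to 1.08. The share in a replicate's own list fell to 63.3% and 59.9% with a reciprocal overlap of 50%, and for replicate 2 to 63.3% on the pooled list. One list alone held 70.4% to 73.6% of members, against 61.1% in both. The share with a core summit too was 2.59% with signals of at least the median, and the share inside another gene was 39.9% with transcript starts and 23.8% with protein-coding genes only. GAGCG was in 19.4% of windows of 25 bp on either side and in 44.2% of windows of 100 bp on either side. Its ratio to background stayed between 3.78 and 6.50. Where no construction explains a shift, the cause was not tested. No paired analysis was possible because the samples form 1 group. Unknown depth and 2 replicates limit all signals.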
